A study of Homo sapiens with 12 samples.

Results

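The first 4 h of all-trans retinoic acid (ATRA) in HL-60 cells were examined by bulk RNA-seq. HL-60 is an established human promyelocytic leukemia line that matures toward neutrophils in ATRA. The comparison set 3 libraries of cells kept 4 h in 1 µM ATRA against 3 libraries of cells at 0 h, before ATRA, which makes 6 of the 12 libraries of the series. The other 6 libraries, from 2 d and 4 d of ATRA, entered the statistical fit and are otherwise given only as levels. All cells grew in medium with 20% fetal bovine serum. No untreated library of 4 h was used here, so ATRA and 4 h of further culture cannot be told apart. The labels do not state that replicates were separate cultures, so a p-value here reflects only how far these libraries spread, which may be technical. In bulk RNA, fewer cells of a kind and less RNA per cell cannot be told apart either.

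Reads assigned to genes numbered between 10223158 and 12077671 at 0 h and between 9981906 and 13658177 at 4 h. Levels are CPM, a gene's reads relative to the gene reads of its library, after TMM scaling, which adjusts for composition. The 8 promyelocyte markers searched, among them MPO and ELANE, had reads in all 6 libraries and summed to between 30890 and 67080 CPM. The libraries were uneven in 2 ways. One is 4 h replicate 1, which held reads in 22265 genes, against 15212 to 15673 genes in the other 5 libraries compared. The other is a slope of expression on the GC content of transcripts, relative to the group mates, of 0.49 log2 units per 10 percentage points in 0 h replicate 2 and 0.37 in 4 h replicate 3, and between -0.35 and -0.09 in the other 4 libraries. Because each slope is taken against the group mates, slopes of both signs must occur within a group.

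Retinoic acid enters the nucleus and binds receptors of the RAR family, which sit on DNA as heterodimers with RXR. Without ligand the pair holds corepressors at its target genes, and with ligand it exchanges them for coactivators, so that direct targets can change within hours. The classic binding element is a direct repeat of a hexamer close to AGGTCA with a spacer of 5, 2 or 1 bases.

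RefSeq promoter windows (GRCh38.p14, from 250 bases before to 50 bases after a start site) were searched on both strands for 2 hexamers in the same direction, with a spacer of 5, 2 or 1 bases. Accepted hexamers were AGGTCA and its variant AGTTCA in which the G before TCA is replaced, each also with G in place of its first letter, namely GGGTCA for the former and likewise GGTTCA for the latter. Such a repeat was present in 0.259% of all 35116 windows and in 0.28% of the 14289 windows of tested genes. Among the genes called higher at 4 h it was present in 3 of 289 windows, and among those called lower in 0 of 574. These windows cover 196 of the 254 higher and 386 of the 536 lower genes. Of the response genes DHRS3, TGM2 and HIC1, described further on, DHRS3 had 3 windows and a repeat in 0 of them, and TGM2 and HIC1 had 0 windows in the table. The 3 genes with a repeat were CYP26A1, BATF2 and CASD1, and the last 2 are named because of this search, after their values were seen. For CYP26A1 and BATF2 the 150 bases before the start site are shown as examples of this letter pattern, read 5′ to 3′ along the gene, with the 2 hexamers in capitals.
CYP26A1, chr10:93073743-93073892, plus strand: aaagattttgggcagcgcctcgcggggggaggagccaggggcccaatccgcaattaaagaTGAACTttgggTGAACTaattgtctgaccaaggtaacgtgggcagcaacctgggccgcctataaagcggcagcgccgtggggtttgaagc
BATF2, chr11:64990278-64990427, minus strand: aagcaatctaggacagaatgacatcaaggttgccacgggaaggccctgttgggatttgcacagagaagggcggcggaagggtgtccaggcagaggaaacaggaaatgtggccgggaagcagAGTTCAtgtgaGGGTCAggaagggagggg
In CYP26A1, the enzyme that degrades retinoic acid, the repeat has a spacer of 5 bases, lies from -90 to -74 counted back from the start site, and reads on the opposite strand. In BATF2, a basic leucine zipper factor, it also has a spacer of 5 bases and lies from -29 to -13. The site of CASD1, a sialic acid acetyltransferase gene, is TGACCCggTGACCC on the opposite strand, from -94 to -81, with a spacer of 2 bases. A match of letters describes the window and was not tested for binding.

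CYP26A1 had 0 reads in all 3 libraries at 0 h and 0.458, 0.653 and 0.678 CPM at 4 h, at least 6.46-fold higher with 3 reads over the 0 h group as the floor (adjusted p = 0.00692). BATF2 had 0 reads at 0 h and 24, 22 and 26 reads at 4 h, or 2.20, 1.60 and 2.20 CPM, at least 21.1-fold higher (adjusted p = 6.59e-05). Both were called whichever of the 6 libraries was left out. With the 6 libraries alone, however, CYP26A1 had too few reads to be tested. It entered the test, also in the fits with a library left out, through its reads at 2 d and 4 d. CASD1 stood at 12.04, 10.2 and 11.7 CPM at 0 h and 22.7, 17.7 and 14.9 CPM at 4 h, a log2 fold change of 0.70 ± 0.18 (adjusted p = 0.0318). Its groups did not overlap, but the call held in 1 of 6 fits with a library left out, and the adjusted p reached 0.146 without 4 h replicate 1.

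Of the 12671 genes with enough reads to test, 790 (6.23%) differed between 4 h and 0 h at an adjusted p under 0.05. They were 254 higher at 4 h (2%) and 536 lower (4.23%), and the median log2 fold change of all tested genes was 0.00. The unadjusted p was under 0.05 for 3202 genes. Libraries of the 2 groups did not overlap in 3232 tested genes (25.5%), and in 787 of the 790 called. Calls that also passed in each of 6 further fits, leaving out 1 of the 6 libraries at a time, numbered 239 (1.89% of tested genes), 82 higher and 157 lower. They are called stable here.

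Symbols of standard myeloid lists were then set aside: CD antigens, chemokines, interleukins, Fc and lectin receptors, interferon genes, granule proteins, lineage factors, retinoid genes and a few other families. This left 11812 tested genes, of which 206 were called higher and 430 lower (5.38%), 50 and 113 of them stable. In the set-aside families 859 genes were tested, with 48 higher and 106 lower (17.9%) and 32 and 44 of them stable. So 163 of the 636 calls outside the lists were stable (25.6%), against 76 of 154 inside them (49.4%). The set-aside symbols include retinoid genes known for the response and a few genes named in an earlier account of these data. Higher shares inside the lists were therefore partly built in and do not describe myeloid genes as such. The families were matched by symbol, and some genes with roles in myeloid cells stayed outside, such as PIK3CG, the gamma catalytic subunit of PI3 kinase, at 27.2 ± 7.17 CPM at 0 h and 77.6 ± 15.4 CPM at 4 h, and AOAH, which deacylates lipopolysaccharide, at 15.2 ± 1.87 CPM at 0 h and 5.53 ± 0.583 CPM at 4 h.

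Genes are named by a rule: the 12 largest rises and the 12 largest falls among stable genes outside the lists with a mean of 2 CPM or more over the 6 libraries and groups that do not overlap. The rule had 44 rising and 98 falling genes to choose from.

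The 4 rising genes given first here, not in order of size, include an actin crosslinker and a G protein subunit. PALLD, palladin, an actin-crosslinking scaffold, stood at 0.460, 0.182 and 0.195 CPM at 0 h and 6.04, 3.05 and 2.46 CPM at 4 h, a log2 fold change of 3.72 ± 0.45 (adjusted p = 3.63e-04). GNG2, a gamma subunit of heterotrimeric G proteins, stood at 4.23, 2.09 and 3.41 CPM at 0 h and 27.7, 25.2 and 18.4 CPM at 4 h, a log2 fold change of 2.87 ± 0.27 (adjusted p = 5.07e-05). In both genes 4 h replicate 1 was the highest library and 4 h replicate 3 the lowest of the 3 at 4 h, with a wide gap to 0 h. ARHGAP12, a GTPase-activating protein, stood at 2.76, 3.37 and 2.63 CPM at 0 h and 17.5, 11.8 and 9.92 CPM at 4 h, a log2 fold change of 2.15 ± 0.22 (adjusted p = 8.10e-05). ITPRIPL2 stood at 1.01, 0.546 and 1.07 CPM at 0 h and 7.05, 8.06 and 6.44 CPM at 4 h, a log2 fold change of 3.03 ± 0.31 (adjusted p = 1.01e-04). The groups of both were apart, and the 3 libraries of ITPRIPL2 at 4 h were close to each other. At the later times PALLD stood at 93.9 ± 10.1 CPM at 2 d and 254 ± 35.7 CPM at 4 d and GNG2 at 184 ± 10.3 CPM at 2 d and 308 ± 73.7 CPM at 4 d.

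Secreted proteins made up 3 more. SPARC, a collagen-binding matricellular protein, stood at 1.20, 0.364 and 1.07 CPM at 0 h and 5.04, 5.01 and 5.26 CPM at 4 h, a log2 fold change of 2.53 ± 0.39 (adjusted p = 0.00237). THBS1, thrombospondin 1, an adhesive glycoprotein, stood at 2.85, 2.18 and 2.92 CPM at 0 h and 13.9, 10.9 and 7.54 CPM at 4 h, a log2 fold change of 2.02 ± 0.27 (adjusted p = 6.93e-04). SCUBE1, a secreted or surface-bound protein with EGF-like domains, stood at 1.29, 2.37 and 1.85 CPM at 0 h and 10.1, 10.02 and 9.83 CPM at 4 h, a log2 fold change of 2.44 ± 0.19 (adjusted p = 1.01e-05). The 4 h libraries of SPARC and SCUBE1 lay almost on top of each other, while those of THBS1 spread more and stayed above 0 h. The later levels of the 3 genes took separate courses. SPARC stood at 1.91 ± 0.365 CPM at 2 d and 0.264 ± 0.210 CPM at 4 d, SCUBE1 at 63.3 ± 4.06 CPM at 2 d and 32.1 ± 1.23 CPM at 4 d, and THBS1 at 221 ± 33.1 CPM at 2 d and 1433 ± 287 CPM at 4 d.

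Transporters, a channel, an enzyme and a transcription factor complete the 12. SLC16A9, of the monocarboxylate transporter family, stood at 1.75, 1.64 and 2.53 CPM at 0 h and 16.4, 13.2 and 10.6 CPM at 4 h, a log2 fold change of 2.76 ± 0.25 (adjusted p = 3.04e-05). SLCO5A1, of the organic anion transporter family, stood at 2.57, 1.73 and 2.73 CPM at 0 h and 11.6, 11.03 and 10.4 CPM at 4 h, a log2 fold change of 2.23 ± 0.26 (adjusted p = 2.27e-04). KCNH4, a voltage-gated potassium channel subunit, stood at 2.02, 4.18 and 2.63 CPM at 0 h and 10.5, 11.98 and 12.6 CPM at 4 h, a log2 fold change of 1.99 ± 0.24 (adjusted p = 2.95e-04). In all 3 the highest 0 h library stood below the lowest 4 h library. SMOX, spermine oxidase, an enzyme of polyamine breakdown, was the most abundant of the 12, at 16.4, 25.02 and 17.8 CPM at 0 h and 75.6, 85.5 and 134 CPM at 4 h, a log2 fold change of 2.32 ± 0.23 (adjusted p = 8.23e-05). HIVEP3, a zinc finger DNA-binding protein, stood at 1.84, 5.00 and 3.12 CPM at 0 h and 10.99, 12.8 and 15.4 CPM at 4 h, a log2 fold change of 1.97 ± 0.29 (adjusted p = 0.00169). In SMOX and HIVEP3 the highest library was 4 h replicate 3, opposite to PALLD and ARHGAP12. SLC16A9 stood at 14.4 ± 0.839 CPM at 2 d and 5.67 ± 1.19 CPM at 4 d, and SMOX at 203 ± 9.78 CPM at 2 d and 125 ± 17.7 CPM at 4 d.

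**Figure D1:**
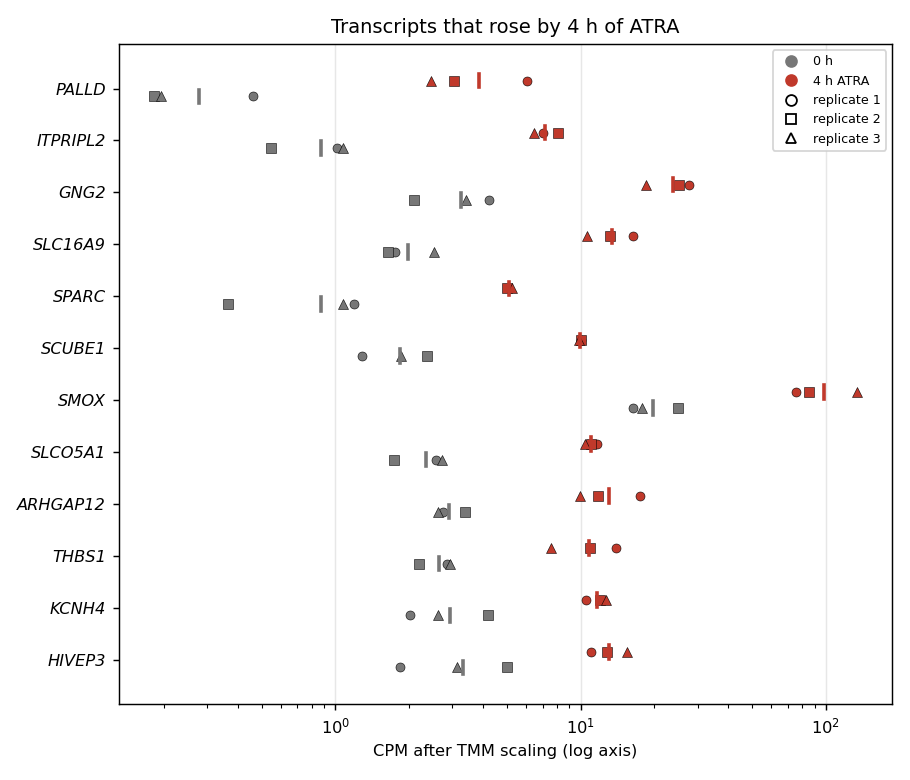
Level of 12 rising genes in each of the 3 libraries at 0 h (grey) and at 4 h (red), in CPM on a log axis, with marker shape for the replicate and a bar at the group mean. No grey point reaches a red one in any row, and the red points of SPARC and SCUBE1 coincide.

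The largest fall outside the lists was that of NOG, noggin, a secreted antagonist of BMPs, which stood at 4.23, 11.4 and 5.26 CPM at 0 h and 0.549, 0.508 and 0.424 CPM at 4 h, a log2 fold change of -3.79 ± 0.48 (adjusted p = 4.67e-04). NRARP, an ankyrin repeat protein that dampens Notch signalling, stood at 6.53, 8.55 and 8.57 CPM at 0 h and 1.83, 1.60 and 1.10 CPM at 4 h, a log2 fold change of -2.38 ± 0.29 (adjusted p = 3.64e-04). The highest NOG library at 4 h was far below the lowest at 0 h, and NRARP was close within both groups. At 2 d and 4 d NOG stayed low, at 0.164 ± 0.0855 CPM at 2 d and 0.102 ± 0.104 CPM at 4 d.

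The desaturases of polyunsaturated fatty acid synthesis fell. FADS2, the delta-6 desaturase gene, stood at 9.65, 4.46 and 10.9 CPM at 0 h and 0.733, 0.145 and 1.02 CPM at 4 h, a log2 fold change of -3.74 ± 0.50 (adjusted p = 7.99e-04). FADS1, the delta-5 desaturase gene, stood at 7.26, 2.64 and 7.01 CPM at 0 h and 1.01, 0.726 and 1.02 CPM at 4 h, a log2 fold change of -2.61 ± 0.41 (adjusted p = 0.00237). For both, 0 h replicate 2 was the lowest library of its group and still above every 4 h library. The level of FADS2 was 3.40 ± 0.406 CPM at 2 d and 5.63 ± 1.96 CPM at 4 d, and that of FADS1 0.783 ± 0.305 CPM at 2 d and 0.482 ± 0.0982 CPM at 4 d.

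Gap junction genes on chromosome 13 fell as well. GJB2, connexin 26, stood at 5.24, 3.82 and 6.72 CPM at 0 h and 1.01, 0.871 and 0.170 CPM at 4 h, a log2 fold change of -2.92 ± 0.46 (adjusted p = 0.00245). GJB6, connexin 30, which the rule names through the junction list, stood at 5.51, 3.37 and 4.87 CPM at 0 h and 1.01, 0.653 and 1.19 CPM at 4 h, a log2 fold change of -2.27 ± 0.34 (adjusted p = 0.00191). Their libraries ranged from 3.37 to 6.72 CPM at 0 h and did not exceed 1.19 CPM at 4 h, so each value at 4 h rests on few reads.

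Regulators of transcription, the cell cycle and growth made up a further group. CCNA1, cyclin A1, a germ line cyclin also expressed in myeloid leukemia, stood at 12.1, 27.9 and 17.5 CPM at 0 h and 3.30, 3.85 and 4.24 CPM at 4 h, a log2 fold change of -2.33 ± 0.28 (adjusted p = 2.95e-04). FOXO6, a forkhead factor, stood at 5.61, 13.6 and 6.72 CPM at 0 h and 1.83, 1.23 and 1.86 CPM at 4 h, a log2 fold change of -2.40 ± 0.37 (adjusted p = 0.00244). DDIT4L, an inhibitor of mTORC1 signalling, stood at 4.87, 2.46 and 4.48 CPM at 0 h and 1.10, 0.726 and 0.339 CPM at 4 h, a log2 fold change of -2.44 ± 0.41 (adjusted p = 0.00364). The 0 h libraries of CCNA1 and FOXO6 spread widely with replicate 2 on top, and the 4 h libraries were close. RING1, a ubiquitin ligase subunit of Polycomb complexes, stood at 16.9, 4.09 and 5.75 CPM at 0 h and 0.366, 1.23 and 0.932 CPM at 4 h, a log2 fold change of -3.35 ± 0.62 (adjusted p = 0.00655). Its 0 h replicate 1 stood well above the other two, and without that library the log2 fold change was -2.50. RING1 lies on chromosome 6 among genes that also have alternative haplotype sequences in some genome indexes, and the index used by the authors is not given in the sources used here, so its reads may be incompletely assigned.

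The remaining 3 have varied roles. TNNT1, slow skeletal troponin T, stood at 6.99, 7.55 and 4.58 CPM at 0 h and 0.824, 1.45 and 0.678 CPM at 4 h, a log2 fold change of -2.66 ± 0.33 (adjusted p = 4.09e-04). GPR162, an orphan receptor of the G protein-coupled family, stood at 3.58, 6.46 and 4.29 CPM at 0 h and 0.458, 0.653 and 1.53 CPM at 4 h, a log2 fold change of -2.43 ± 0.40 (adjusted p = 0.00322). SPACA6P, an older symbol of the sperm acrosome gene SPACA6 in RefSeq, stood at 7.81, 15.7 and 5.65 CPM at 0 h and 1.65, 1.74 and 2.63 CPM at 4 h, a log2 fold change of -2.27 ± 0.43 (adjusted p = 0.00742). TNNT1 was even within groups, while SPACA6P was highest in 0 h replicate 2 and came closest of the 12 to losing its call, with an adjusted p of 0.0495 without 4 h replicate 2. The log2 fold change of GPR162 was -3.04 without 4 h replicate 3. Its later levels were 10.7 ± 1.83 CPM at 2 d and 44.5 ± 13.4 CPM at 4 d.

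**Figure D2:**
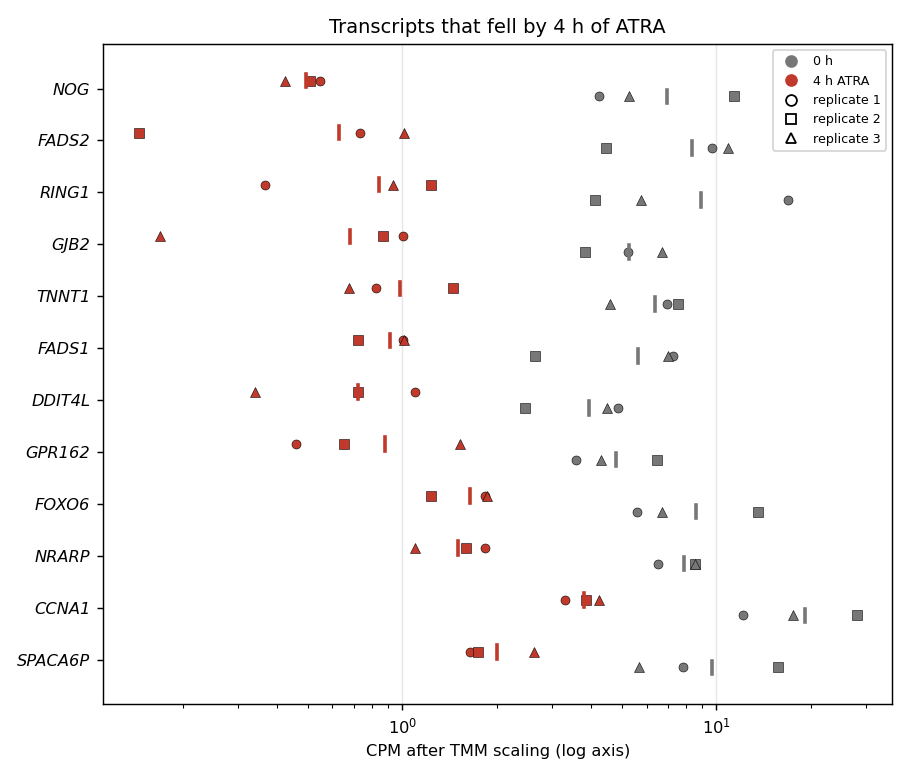
Level of 12 falling genes in each library at 0 h (grey) and 4 h (red), in CPM on a log axis, with marker shape for the replicate and a bar at the group mean. Every red point lies left of every grey one in its row, and 0 h replicate 2 (grey square) is the highest point of its group in 6 of the rows and the lowest in 5.

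Gene groups were read against the 6.23% of all tested genes that were called, and against the median log2 fold change of 0.00. The lists were chosen with earlier results in view and their counts are descriptions. Of 32 tested retinoid enzymes, receptors and classic targets, 8 were higher and 1 lower (28.1%), 7 of them stable, with a median log2 fold change of 0.24. DHRS3, a retinaldehyde reductase, had 0 reads at 0 h and 4.03, 5.30 and 7.88 CPM at 4 h, at least 61.7-fold higher. TGM2, transglutaminase 2, stood at 0.319 ± 0.318 CPM at 0 h and 25.4 ± 3.70 CPM at 4 h, and HIC1, a zinc finger repressor, at 1.55 ± 0.449 CPM at 0 h and 93.05 ± 26.9 CPM at 4 h. The log2 fold change of TGM2 was 6.29, and 7.42 without 0 h replicate 3. This list was drawn from genes known for the response, and 22 of its tested members were among the set-aside symbols.

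Of 35 tested genes of TGF-beta, BMP and activin signalling, 3 were higher and 3 lower (17.1%), with a median of 0.05. Besides NOG, the stable ones were ID1, a target of BMP signalling that blocks basic helix-loop-helix factors, at 0.551, 1.82 and 0.487 CPM at 0 h and 29.9, 36.4 and 56.04 CPM at 4 h, and SKIL, a corepressor of SMADs, at 9.38, 9.55 and 6.33 CPM at 0 h and 31.7, 26.5 and 17.6 CPM at 4 h. No library overlapped in either. The log2 fold change of ID1 was 5.39, and 6.25 without 0 h replicate 2. FSTL3, an activin-binding protein, was called lower at -1.44 ± 0.39 (adjusted p = 0.0453), but held in 3 of 6 fits, with an adjusted p of 0.184, 0.174 and 0.188 without 0 h replicate 2, 4 h replicate 1 and 4 h replicate 2, and a log2 fold change of -0.76 without the first of these. TGIF1, a homeodomain corepressor, was called lower at -0.62 ± 0.14 (adjusted p = 0.0233) and was lost without the same 3 libraries, at up to 0.119.

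Notch, Wnt and Hedgehog signalling had 2 higher and 2 lower of 38 tested genes (10.5%), with a median of 0.04. DTX4, a Deltex ubiquitin ligase of the Notch pathway, stood at 5.42, 5.82 and 7.40 CPM at 0 h and 2.29, 1.89 and 1.86 CPM at 4 h, a log2 fold change of -1.62 ± 0.19 (adjusted p = 2.19e-04). IHH, the ligand Indian hedgehog, stood at 0.276, 0.364 and 0.0974 CPM at 0 h and 2.02, 2.76 and 3.90 CPM at 4 h, a log2 fold change of 3.48 ± 0.46 (adjusted p = 6.93e-04). DTX4 fell and IHH rose without overlap, IHH from fewer than 1 CPM. The receptor NOTCH2 was called higher at 1.31 ± 0.26 (adjusted p = 0.0101) with 50.9 ± 12.2 CPM at 0 h and 126 ± 31.4 CPM at 4 h, and only the fit without 4 h replicate 2 lost it, at an adjusted p of 0.0516. DTX4 stood at 20.9 ± 2.15 CPM at 2 d and 164 ± 6.05 CPM at 4 d, and IHH at 114 ± 15.7 CPM at 2 d and 151 ± 43.1 CPM at 4 d.

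G protein subunits, RGS proteins, cyclases and phosphodiesterases had 2 higher and 7 lower of 49 (18.4%), with a median of -0.09. Beside the rise of GNG2 stood a fall of another gamma subunit, GNG7, at 9.38, 9.91 and 9.16 CPM at 0 h and 1.65, 2.61 and 2.63 CPM at 4 h, a log2 fold change of -2.03 ± 0.18 (adjusted p = 3.38e-05). The beta subunit gene GNB5 stood at 11.5 ± 0.503 CPM at 0 h and 5.81 ± 0.446 CPM at 4 h and was stable. GNA11 and PDE4A were called lower at -1.46 ± 0.37 (adjusted p = 0.0347) and -1.69 ± 0.41 (adjusted p = 0.0290), and each was lost in 4 of 6 fits, at up to 0.164 and 0.120 without 4 h replicate 2. Of 55 receptors of the G protein-coupled family other than chemoattractant and chemokine receptors, 1 was higher and 9 lower (18.2%), with a median of -0.38. LPAR5, a receptor for lysophosphatidic acid, stood at 6.80, 11.8 and 7.40 CPM at 0 h and 2.20, 2.10 and 3.14 CPM at 4 h, a log2 fold change of -1.81 ± 0.27 (adjusted p = 0.00192). HCAR2 and HCAR3, hydroxycarboxylic acid receptors, were called lower at -2.00 ± 0.47 (adjusted p = 0.0236) and -2.83 ± 0.77 (adjusted p = 0.0450). They are near-identical copies, so reads may be split between them, and their calls held in 3 and 1 of 6 fits, at up to 0.100 and 0.190 without 4 h replicate 2. The log2 fold change of HCAR3 was -3.82 without 4 h replicate 1.

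Of 45 extracellular matrix genes, 2 were higher, SPARC and THBS1, and 9 lower (24.4%), with a median of -0.35. LAMA5, the laminin alpha 5 chain, stood at 3.40, 8.91 and 4.58 CPM at 0 h and 1.19, 1.02 and 1.95 CPM at 4 h, a log2 fold change of -2.02 ± 0.37 (adjusted p = 0.00673), and was stable. PCOLCE, an enhancer of procollagen processing, and SPON2, a secreted spondin, were called lower at -2.25 ± 0.56 (adjusted p = 0.0330) and -2.49 ± 0.56 (adjusted p = 0.0208). Both had a 0 h replicate 2 far above its mates, at 10.3 and 96.5 CPM, and both lost the call without that library, at 0.167 and 0.0644 and log2 fold changes of -1.44 and -1.37, and without 4 h replicate 1 or 2. Cadherins, claudins and gap junction proteins had 1 higher and 6 lower of 39 (17.9%), with a median of -0.15. CLDN9, a claudin, was called lower at -1.99 ± 0.54 (adjusted p = 0.0450), with 0 h replicate 2 at 15.6 CPM against 4.69 and 5.94, and was lost without that library, at 0.228 and a log2 fold change of -1.28, and without 4 h replicate 1 or 2. CLDN7 was called lower at -2.72 ± 0.71 (adjusted p = 0.0382) and held in 2 of 6 fits, at up to 0.190 without 0 h replicate 2, where its log2 fold change was -1.97. The GC content of transcripts and 0 h replicate 2 moved with falls of this kind, and their part in these list counts was not tested.

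Basic helix-loop-helix factors had 5 higher and 4 lower of 42 (21.4%), with a median of -0.05. OLIG2, known from the oligodendrocyte lineage, stood at 36.95, 24.1 and 40.6 CPM at 0 h and 6.87, 7.33 and 8.99 CPM at 4 h, a log2 fold change of -2.13 ± 0.27 (adjusted p = 5.81e-04), and its relative OLIG1, a set-aside symbol on the same chromosome, at 49.5, 116 and 52.03 CPM at 0 h and 9.07, 9.36 and 15.6 CPM at 4 h, -2.68 ± 0.36 (adjusted p = 8.27e-04). Both fell without overlap and were stable. EPAS1, which encodes HIF-2 alpha, had 1 read over the 3 libraries at 0 h and 44 at 4 h, a ratio of 38.8 with a counting interval from 6.6 to 1565 (adjusted p = 0.0122). Its level at 4 h was 2.38, 0.363 and 1.10 CPM, highest in the library with stray reads, and without that library the call held, at an adjusted p of 0.0413. Its fitted log2 fold change was 4.89, and it was 4.08 without that library and 6.80 without 0 h replicate 2, which held the read at 0 h. Like CYP26A1, EPAS1 had too few reads to be tested with the 6 libraries alone. The coactivators NCOA3 and NCOA2, which share the domain, were called higher, NCOA3 stably at 17.6 ± 2.97 CPM at 0 h and 45.2 ± 11.4 CPM at 4 h. NCOA2 stood at 2.67, 1.91 and 4.09 CPM at 0 h and 16.9, 13.6 and 5.00 CPM at 4 h and held in 1 of 6 fits, at up to 0.174 without 4 h replicate 1.

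In fatty acid and triglyceride metabolism, 2 of 70 genes were higher and 5 lower (10%), with a median of 0.02. Beside FADS1 and FADS2, ACSS2, which makes acetyl-CoA from acetate, stood at 32.7, 32.7 and 38.1 CPM at 0 h and 12.5, 13.6 and 18.1 CPM at 4 h, a log2 fold change of -1.23 ± 0.20 (adjusted p = 0.00284). The rise was led by MLXIPL, the carbohydrate response factor ChREBP, with 1 read over the 0 h group and 216 reads at 4 h, a ratio of 190.2 with a counting interval from 33.8 to 7548 (adjusted p = 8.10e-05). Its fitted log2 fold change was 7.14, and 9.05 without 0 h replicate 1. Sphingolipid and phospholipid enzymes stood at the background, with 2 higher and 4 lower of 96 (6.25%) and a median of -0.09. The stable member was B4GALT5, lactosylceramide synthase, at 254, 130.3 and 266 CPM at 0 h and 637, 647 and 519.7 CPM at 4 h, a log2 fold change of 1.47 ± 0.28 (adjusted p = 0.00805). PLA2G7, the platelet-activating factor acetylhydrolase, was called lower at -2.63 ± 0.54 (adjusted p = 0.0122) and lost without 4 h replicate 2, at 0.0727, and its log2 fold change was -4.03 without 4 h replicate 1. GPAM and DGKA, enzymes of glycerolipid turnover, were called at 1.04 ± 0.22 (adjusted p = 0.0129) and -1.15 ± 0.25 (adjusted p = 0.0171) and held in 3 and 4 of 6 fits, at up to 0.0681 and 0.0853 without 4 h replicate 1.

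Cytoskeletal filament, myosin and crosslinking proteins had 2 higher and 6 lower of 73 (11%), with a median of 0.00. VIM, vimentin, stood at 49.7, 43.6 and 40.04 CPM at 0 h and 16.1, 15.1 and 18.3 CPM at 4 h, a log2 fold change of -1.43 ± 0.16 (adjusted p = 2.10e-04). TUBA1A, an alpha tubulin, stood at 67.3, 41.5 and 70.6 CPM at 0 h and 20.6, 19.5 and 25.1 CPM at 4 h, a log2 fold change of -1.46 ± 0.20 (adjusted p = 8.27e-04). Both fell without overlap, opposite in sign to PALLD. Receptor tyrosine kinases, ligands and docking proteins had 2 higher and 4 lower of 58 (10.3%), with a median of -0.13, and 1 stable member, the receptor ROR2, at 1.84, 2.82 and 2.73 CPM at 0 h and 7.14, 7.69 and 8.82 CPM at 4 h, a log2 fold change of 1.68 ± 0.27 (adjusted p = 0.00261).

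The list of ion channels, which does not hold the rising KCNH4, had 0 higher and 9 lower of 84 (10.7%), with a median of -0.16. The stable ones were KCNH2, the hERG potassium channel, at 12.2, 20.01 and 11.6 CPM at 0 h and 4.03, 2.90 and 3.31 CPM at 4 h, and BEST1, bestrophin 1, at 2.94, 6.91 and 3.31 CPM at 0 h and 1.28, 0.871 and 0.848 CPM at 4 h. Homeobox genes had 0 higher and 4 lower of 39 (10.3%), with a median of -0.10, and semaphorins, ephrins, netrins and their receptors 0 higher and 3 lower of 39 (7.69%), with a median of -0.36. None of these 7 calls was stable. PLXND1, a plexin and the most abundant of them, stood at 381 ± 103 CPM at 0 h and 189 ± 26.4 CPM at 4 h and was lost without 4 h replicate 1 or 2, at 0.0649 and 0.0698. Glycosyltransferases and sulfotransferases had 3 higher and 2 lower of 81 (6.17%), with a median of 0.01 and none stable. CHST15, a chondroitin sulfotransferase, rose at 1.54 ± 0.33 (adjusted p = 0.0158) and was lost only without 4 h replicate 1, at 0.0622. The list of ubiquitin ligase subunits, which does not hold RING1, had 5 higher and 3 lower of 145 (5.52%), with a median of 0.07, and 1 stable member, ASB2, at 5.70, 9.46 and 7.31 CPM at 0 h and 16.8, 20.1 and 26.6 CPM at 4 h. Protein tyrosine phosphatases had 0 higher and 1 lower of 43 (2.33%), with a median of 0.12, the 1 being PTPRE at -0.68 ± 0.15 (adjusted p = 0.0181), lost without 0 h replicate 3 or 4 h replicate 1, at 0.0588 and 0.0518. In these 4 lists with 0 rises by edgeR, an unadjusted p under 0.05 was reached by 7 higher ion channels, 5 homeobox genes, 2 guidance genes and 7 phosphatases. DESeq2 called 1 ion channel and 1 phosphatase higher and 0 in the other lists, and limma-voom called 0 in any of the 4.

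How far calls changed when a library was left out was read from the 6 left-out fits. Leaving out a library also makes its group smaller, which by itself can raise p. A lost call therefore does not show that a change rested on that library. Without 0 h replicate 1, 2 and 3 in turn, 600, 483 and 663 genes were called. Without 4 h replicate 1, 2 and 3, the numbers were 347, 257 and 1531. No gene called in both fits changed direction in any of them. Leaving out 4 h replicate 2 removed the most calls, 534 of the 790 (67.6%), and 39 genes were lost in that fit alone. The median log2 fold change of the 790 calls without this library was 1.00 for rises and -1.22 for falls, against 1.01 and -1.25 with all libraries. Leaving out 4 h replicate 1, the library with stray reads, removed 461 (58.4%), and 10 genes were lost there alone.

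The GC slopes of 4 h replicates 1 and 2 were -0.275 and -0.0901, and that of 4 h replicate 3 was 0.365. As each is taken against the group mates, a difference in sign is built in and does not mark out 4 h replicate 3. Without this library, 719 of the 790 calls were kept and 812 were added, and the balance moved from 254 higher and 536 lower to 802 higher and 729 lower. The 558 added rises had a median transcript GC content of 39.7% and a median length of 6142 bases, and the 254 added falls 59.5% and 2314 bases, beside 48.7% and 3526 bases over all tested genes. The calls of all 12 libraries lay on the same axis, with a median GC content of 46% for higher and 56.1% for lower genes. Stable rises and falls lay closer together, at 52.6% and 54.7%. With GC content and transcript length entered as offsets, 570 genes were higher and 791 lower, and 237 of the 239 stable genes were called. Whether GC content is the reason for any call was not tested.

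The order of libraries within groups was uneven over all genes. Of the 11881 genes not called, 0 h replicate 2 was the highest of its group in 38.6% and the lowest in 46.4%, and 4 h replicate 3 the highest in 45.5% and the lowest in 41.0%. Of the 536 falls, 0 h replicate 2 was the highest in 62.5% and 4 h replicate 3 the highest in 63.8%, and of the 157 stable falls in 50.3% and 58.0%. Of the 254 rises, 0 h replicate 2 was the lowest in 62.2% and 4 h replicate 3 the lowest in 57.9%. Of the 82 stable rises, 0 h replicate 2 was the lowest in 48.8%, while 4 h replicate 3 was the lowest in 35.4% and the highest in 57.3%. The library with stray reads was the highest 4 h library in 49.2% of rises, and in 31.7% of stable rises.

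**Figure D3:**
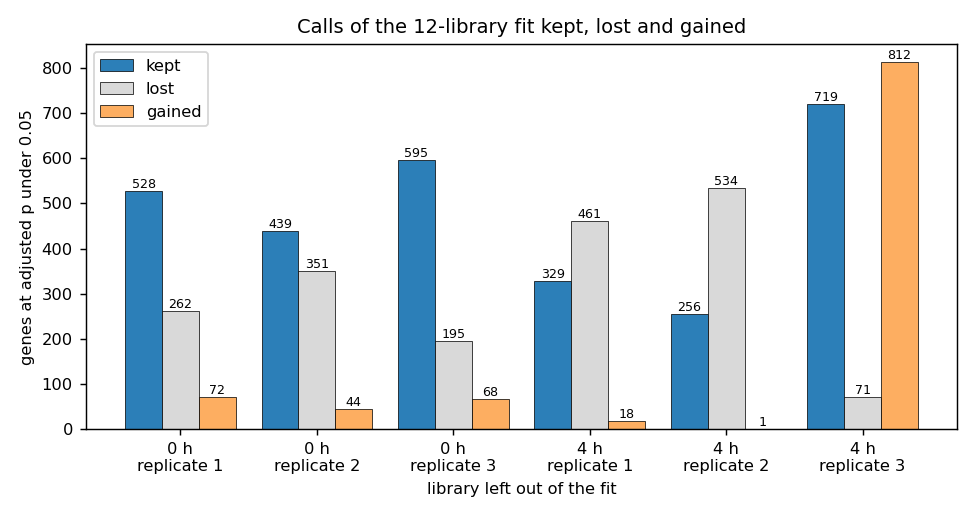
Genes at an adjusted p under 0.05 in each of 6 fits that leave out 1 library, split into the calls of the 12-library fit that were kept (blue) or lost (grey) and genes called only in the left-out fit (orange). Losses are largest without 4 h replicate 2, at 534, and gains without 4 h replicate 3, at 812.

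Stable calls were most frequent among large changes. Of the rises, 10 of 124 under 2-fold were stable (8.06%), 37 of 84 between 2-fold and 4-fold (44%), and 35 of 46 of 4-fold or more (76.1%). Of the falls, 17 of 171 (9.94%), 95 of 276 (34.4%) and 45 of 89 (50.6%) were stable in the same ranges. By mean level, between 23.5% and 46.7% of rises were stable in each of 5 ranges. Falls with a mean under 1 CPM were never stable, 0 of 29, and in the 4 higher ranges between 24.4% and 35.6% were. These are shares of called genes and were not compared by a test.

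Among genes outside the myeloid lists with a mean of 2 CPM or more, the 6 largest calls lost in at least 2 left-out fits were examined library by library. C6orf48 was called lower at -3.48 ± 0.97 (adjusted p = 0.0498) with 52.2, 3.46 and 3.02 CPM at 0 h and 1.47, 1.96 and 1.78 CPM at 4 h. A single library, 0 h replicate 1, stood far above the other 5, and without it the log2 fold change was -0.89 and the adjusted p 0.294. FLOT1, flotillin 1, a scaffold of membrane microdomains, was called higher at 3.06 ± 0.75 (adjusted p = 0.0293) with 1.20, 1.00 and 2.53 CPM at 0 h and 24.7, 12.3 and 2.37 CPM at 4 h. Its groups overlapped, 4 h replicate 1 was the highest, and without it the log2 fold change was 2.23 and the adjusted p 0.145. Both genes lie on chromosome 6 near RING1, with the same limit on assignment. ZNF141, a zinc finger protein of the KRAB family, was called higher at 1.56, 1.27 and 1.95 CPM at 0 h and 10.1, 10.7 and 3.39 CPM at 4 h, with an adjusted p of 0.0240 and of 0.106 without 4 h replicate 2. MNX1, a homeobox factor, stood at 2.30, 6.37 and 1.75 CPM at 0 h and 0.366, 0.871 and 0.763 CPM at 4 h, DOC2A, a calcium sensor of vesicle release, at 9.19, 40.4 and 11.01 CPM at 0 h and 3.11, 3.19 and 5.85 CPM at 4 h, and KIFC2, a kinesin, at 48.6, 252 and 57.8 CPM at 0 h and 16.9, 19.8 and 35.5 CPM at 4 h. In these 3 genes 0 h replicate 2 was far above its mates, and without it the adjusted p was 0.117, 0.112 and 0.199. The calls were also lost without 4 h replicate 1, at 0.102, 0.119 and 0.164, and without 4 h replicate 2, at 0.0748, 0.1205 and 0.162. Their log2 fold changes were -2.34, -2.32 and -2.31 with all libraries and -1.57, -1.32 and -1.15 without 0 h replicate 2.

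Within the same limits, 8 genes were not called with all libraries but called in at least 3 left-out fits, and the 6 largest were AATK, CRACR2B, CAHM, OSCAR, C1orf228 and LINGO3. OSCAR, an activating collagen receptor of myeloid cells, stood at 59.6, 178 and 61.1 CPM at 0 h and 23.9, 26.9 and 50.5 CPM at 4 h, a log2 fold change of -1.56 ± 0.46 (adjusted p = 0.0625). CRACR2B, a regulator of store-operated calcium entry, stood at 58.00, 246 and 63.4 CPM at 0 h and 25.8, 28.7 and 55.4 CPM at 4 h, a log2 fold change of -1.74 ± 0.53 (adjusted p = 0.0691). C1orf228 stood at 218, 643 and 210.0 CPM at 0 h and 89.4, 102 and 172 CPM at 4 h, a log2 fold change of -1.56 ± 0.44 (adjusted p = 0.0539). In each of the 6 genes 0 h replicate 2 was the highest of the 6 libraries of 0 h and 4 h, and 4 h replicate 3 the highest at 4 h. Leaving out 0 h replicate 2 took the adjusted p of the 6 genes further from the threshold, to between 0.228 and 0.348. Leaving out 4 h replicate 1 or 2 did so too, to between 0.174 and 0.236 and between 0.202 and 0.241. AATK, a neuronal kinase gene, was the only one of the 6 whose groups overlapped, with 4 h replicate 3 and 0 h replicate 1 both at 4.32 CPM.

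**Figure D4:**
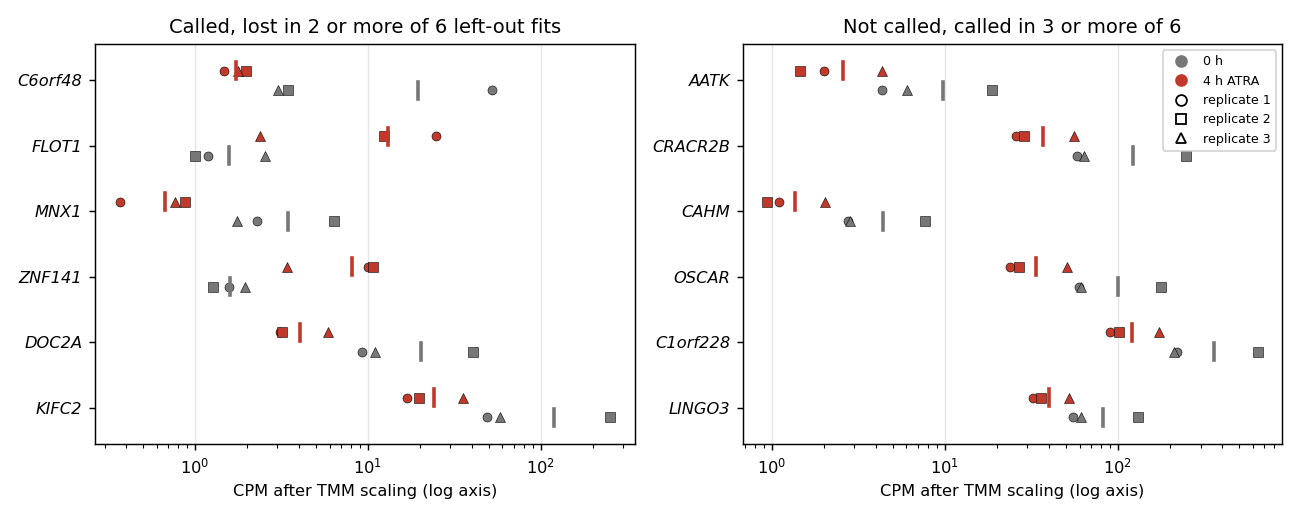
Level in each library at 0 h (grey) and 4 h (red), in CPM on a log axis, of 6 genes whose call was lost in at least 2 of the 6 fits with a library left out (left panel) and of 6 genes not called with all libraries but called in at least 3 of those fits (right panel), with a bar at the group mean. One library stands far from its mates in most rows: 0 h replicate 1 in C6orf48, and 0 h replicate 2 in DOC2A, KIFC2 and all 6 genes of the right panel.

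The stray reads of 4 h replicate 1 were counted in genes that no other library read. Of 7358 genes with 0 reads in the other 11 libraries, 4260 had a read in this one (57.9%). Each of the other 11 libraries had between 16 and 52 genes of its own. The 4260 genes held 14083 reads, 0.141% of the library's gene reads, with a median of 2 and a maximum of 50 reads. A single read was found in 1342 of them, 2 to 9 reads in 2722, and 10 or more in 196. The filter on low counts asks for reads in as many libraries as the smallest group has. None of the 4260 could pass it, so none entered the test.

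Long transcripts were hit most often. The share of otherwise silent genes with a read was 17.5% for transcripts under 500 bases (95% Wilson interval 15.8% to 19.4%), 60.7% from 1000 to 2000 bases (58.1% to 63.2%) and 95.2% at 8000 bases or more (91.1% to 97.5%). These intervals cover counting error only. The mean density was 0.97 reads per 1000 transcript bases, lower in the longest transcripts, at 0.712, and higher in the shortest, at 1.95. The genes with the most reads were MUC16, a membrane mucin of epithelia, with 50, DNAH5 and DNAH8, dynein heavy chains of cilia and flagella, with 35 and 26, NBEA, neurobeachin, with 24, and EPHA5, an ephrin receptor, with 22. All 5 had 0 reads in the other 11 libraries, and their longest transcripts run from 8421 to 43816 bases.

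**Figure D5:**
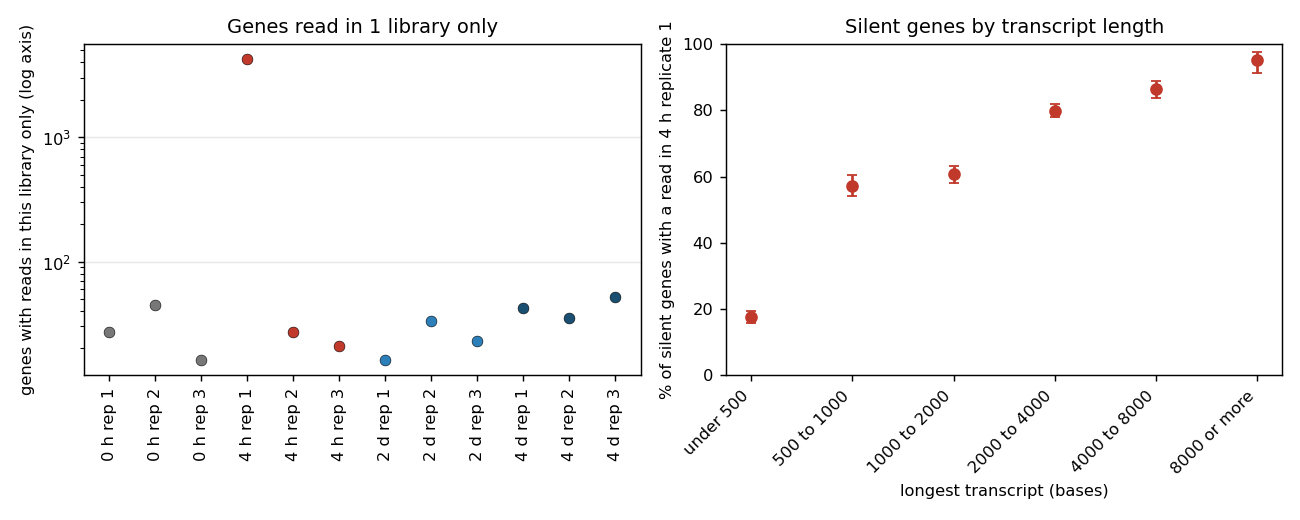
Left, number of genes with reads in a single library, for each of the 12 libraries on a log axis. 4 h replicate 1 stands at 4260 and the others between 16 and 52. Right, share of genes silent in the other 11 libraries that had a read in 4 h replicate 1, by length of the longest transcript, with 95% Wilson intervals, rising from 17.5% to 95.2%.

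Some marker lists of other cell types moved with this library. All 6 fibroblast markers searched had reads in it, 5.68 CPM in sum, against 0.254 to 1.91 CPM and at most 2 markers in the other 5 libraries compared. All 6 neural markers had reads, 2.93 CPM in sum, against 0 to 0.17 CPM and at most 2 markers. Of 7 epithelial markers 6 had reads, 2.38 CPM in sum, against 0.455 to 1.07 CPM, with KRT19 at 0. Erythroid markers had reads in 4 of 7, with HBA1, HBA2 and HBD at 0, and hepatocyte markers in 4 of 6, with APOA1 and TTR at 0. The erythroid sum was 0.916 CPM, against 0.091 to 0.218 CPM in the other 5. The hepatocyte sum was 28.9 CPM, within the range of 28.1 to 51.9 CPM of the others. Of 8 lymphocyte markers 7 had reads, 8.79 CPM in sum, within the range of 7.33 to 17.9 CPM of the others, with CD2 at 0. Reads outside any gene made up 28.1% of this library and 14% to 20.8% of the other 5. The source of the stray reads was not tested.

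Few tested genes rested on this library alone. Of tested genes with 0 reads in the other 5 libraries of 0 h and 4 h there were 10, of which 8 had a read in 4 h replicate 1 and 0 were called. In 14 tested genes more than 80% of the summed CPM of the 6 libraries came from 4 h replicate 1, and 0 of these were called. Reads mostly in 1 of 3 libraries make a wide spread within the group, so such genes could hardly be called. Both counts of 0 therefore do not show whether stray reads affected other calls. Among the 254 rises, 4 had more than 50% of the summed CPM in that library. When the mean density times transcript length was taken off this library's counts, which removed 74239 reads (0.744%), 838 genes were called. Of the 790 calls 778 were among them, with all 239 stable genes. The stable genes are by definition called without this library altogether, so their part in this count is no further check. Without any filter on low counts, 45 of the genes called lay outside the tested genes, 35 of them higher. Of all 1960 genes called without a filter, 19 had 0 reads in the other 5 libraries and reads in 4 h replicate 1.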

How the data were processed

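Whole-number read counts per gene were deposited for 12 libraries, 3 each at 0 h, 4 h, 2 d and 4 d. Per the submitters' processing notes, FastQC, Trim Galore 0.6.7, HISAT2 2.1.0, HTSeq 1.99.2 and hg19 were used by the authors. The sources used here do not give the strand setting, kit or annotation, so overlapping and antisense genes may share reads. Rows of unassigned reads (no feature, 14% to 28.1% of a library at 0 h and 4 h) were left out. Counts of 26364 genes were filtered with filterByExpr, scaled by TMM (factors 0.864 to 1.10) and fitted with edgeR 4.0.16 in R 4.3.3, by quasi-likelihood with 1 mean per time over all 12 libraries (8 residual degrees of freedom), tested for 4 h against 0 h and adjusted by Benjamini-Hochberg. The scripts were tested on simulated counts.

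Errors are SD over 3 libraries for CPM and SE for log2 fold changes, which carry a prior count. Folds against a group with 0 reads use 3 reads over the group. Replicates differed by more than counting error, with a chi-square per degree of freedom of 6.15 to 98.0, so no pair was treated as a repeat deposit of 1 library. This does not show that they were separate cultures. The common coefficient of variation between libraries beyond counting error was 27% at 0 h and 20% at 4 h, and may be technical.

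Named genes are the 12 largest stable changes in each direction, up to 4 called members of each of 19 lists (1 of them not reported here), the 6 largest calls lost in at least 2 left-out fits and the 6 largest genes called only in at least 3 of those (both outside the myeloid lists and at a mean of 2 CPM or more), the 5 genes with most stray reads, and genes with a promoter repeat. PIK3CG, AOAH, GNB5 and NCOA3 were added after their values were seen. LOC, LINC, MIR and similar symbols were left out of the largest changes, and OLIG1, ATHL1 and SPON2 were set aside because an earlier account of these data had named them. The comparison, the lists and the named genes were chosen with earlier results of these data known.

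GC content and length came from GENCODE transcripts (GRCh38) matched by symbol for 24500 genes (92.9%). Alternatives were DESeq2 1.42.0, limma-voom (limma 3.58.1), RLE factors, library totals, 3 other filters, the 6 libraries alone, libraries left out, a replicate block, GC and length offsets, stricter thresholds and, chosen after seeing the data, stray reads taken off.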

Additional observations from a re-analysis of the deposited data

Results flagged for a closer look

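A signal outside the tested genes stood out in 4 h replicate 1. Of 13693 genes under the filter on low counts, 9610 had at least 1 read in this library, against 2618 to 3076 in each of the 0 h libraries and 2646 to 2837 in the other 4 h libraries. They held 0.404% of its gene reads, against 0.0514% to 0.0875% in the other 5 libraries compared. The source was not tested.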

How the results depend on the processing

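The counts of calls moved more than their direction. With 1 library left out, genes higher at 4 h ranged from 90 to 802 and lower from 167 to 729, and outside the myeloid lists from 56 to 742 and from 121 to 600. Higher genes numbered 80 with the 6 libraries alone, 457 with DESeq2, 570 with GC and length offsets, 749 without a filter, 73 at an adjusted p under 0.01 and 130 at 2-fold or more. They numbered 103 without 0 h replicate 2 and 4 h replicate 1 together, and 452 without 0 h replicate 2 and 4 h replicate 3. Lower genes numbered 181 with 6 libraries, 182 without 0 h replicate 2 and 4 h replicate 1, 1211 without a filter and 168 at an adjusted p under 0.01. Outside the lists, higher genes numbered 52, 401, 493, 683, 43 and 94 in the order of settings first given for higher genes, 64 and 403 without the pairs of libraries, and 124 with library totals alone. Lower genes outside the lists numbered 128 with 6 libraries, 128 without 0 h replicate 2 and 4 h replicate 1, 660 with GC and length offsets, 1055 without a filter and 120 at an adjusted p under 0.01. Without a filter 23266 genes were tested, and each gene's spread was estimated with information from all of them. The other settings, apart from the replicate block given next, kept all 4 counts within 1.5 times.

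Deviations of same-numbered libraries from their group means correlated at 0.53, -0.43 and -0.53. Across numbers, 0 h replicate 2 correlated at 0.63 with 4 h replicate 3 and at -0.61 with 4 h replicate 1. The GC slopes of the libraries enter these deviations, so the values cannot decide whether replicate numbers pair the libraries. A fit with the replicate block called 113 higher and 268 lower genes, and 78 and 203 outside the lists. All 239 stable genes were among them.

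Of the 239 stable genes, 211 (68 higher, 143 lower) were also called by DESeq2, limma-voom, RLE factors, library totals, GC and length offsets, the replicate block and the 6 libraries alone. Of the 12671 tested genes, 721 had too few reads to be tested with the 6 libraries alone. The stable genes CYP26A1 and EPAS1 were among these, so they could not be counted in the 211. None of the 100 named genes reversed sign in any setting run, and 48 kept their side of the threshold in all of them. The filter computed without 4 h replicate 1 is looser, since the smallest group then has 2 libraries, and tests 12877 genes. With a mean under 1 CPM, where a gene has few reads, 7 of 15 rises and 0 of 29 falls were stable, and the part of depth in this was not tested.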

Other observations

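Stable genes outside both the named groups and the myeloid lists included several with large changes, chosen here after their values were seen. NDRG1, a stress-responsive protein of differentiation, stood at 115, 77.4 and 131 CPM at 0 h and 249, 269.8 and 318 CPM at 4 h, and PVRL1, nectin 1, at 164, 143 and 221 CPM at 0 h and 436, 493 and 526 CPM at 4 h. OLR1, a scavenger receptor for oxidized LDL, stood at 2.30, 2.37 and 2.14 CPM at 0 h and 7.33, 5.88 and 5.76 CPM at 4 h, and MFGE8, a bridging protein of apoptotic cell uptake, at 0.276, 0.182 and 0.0974 CPM at 0 h and 1.28, 1.45 and 2.12 CPM at 4 h. LGALS1, galectin 1, stood at 92.4, 88.8 and 61.5 CPM at 0 h and 15.8, 20.5 and 26.4 CPM at 4 h, and TP73, a relative of p53, at 1.75, 2.18 and 2.05 CPM at 0 h and 0.733, 0.290 and 0.424 CPM at 4 h. ARNTL, the circadian clock factor BMAL1, stood at 4.50, 4.91 and 6.62 CPM at 0 h and 2.29, 2.18 and 1.86 CPM at 4 h. The first 4 rose and the last 3 fell, with no overlap between the groups in any of the 7 and with calls in all 6 left-out fits.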
